A study of Rattus norvegicus with 18 samples.

Results

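The 10 genes described here encode the enzymes, binding proteins, receptor, adhesive glycoproteins and proteases of the hyaluronan-rich provisional matrix that forms around injured tissue. They are the hyaluronan synthases Has1 and Has2, the hyaluronan-binding proteins Tnfaip6 and Cd44, the matrix proteins Tnc, Thbs1, Fn1 and Spp1, and the proteases Adamts1 and Adamts4. Members were chosen by name, as the non-control probes whose gene name or transcript accession in the scanner files belongs to 1 of these genes, which gave 14 probes of the 41012 on the array and 10 gene names of 35279. Each of the 14 probes was well above background on every array of 1 or more time-points, the condition for a test. Cd44, Tnc, Fn1 and Tnfaip6 have 2 probes each and the other genes 1.

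Hyaluronan is a long sugar chain that synthases in the plasma membrane extrude directly into the space around the cell, where it binds water and swells the tissue. Tnfaip6 (also called TSG-6) moves heavy chains of the serum protein inter-alpha-trypsin inhibitor onto hyaluronan and so cross-links it, and CD44 is the main surface receptor through which leukocytes, fibroblasts and Schwann cells (SCs) hold it. Tenascin-C, thrombospondin-1, osteopontin and fibronectin are laid into the same matrix, and the aggrecanases ADAMTS1 and ADAMTS4 cut versican and related proteoglycans that hang on hyaluronan. In a cut peripheral nerve such a matrix forms between the stumps, where SCs migrate and axons later grow.

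The samples were proximal segments, the stump still joined to the spinal cord, of the left sciatic nerve of adult male Sprague-Dawley rats from which a piece of nerve had been removed. Tissue pieces 0.5 cm long were taken 0 h, then 0.5, 1, 3, 6 or 9 h later, with 3 one-colour Agilent arrays per time-point and 18 in all, and no other treatment, transgene or deletion distinguishes the groups. The labels name the 0 h group as resected nerve as well and give no sham operation. They do not state if rats were pooled on an array, so P-values measure the spread between arrays, which may be technical.

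Signal is given as the log2 of the processed intensity of a spot minus the 75th percentile of its array, called log2 normalized signal below, so that 0 is the level of a probe brighter than 75% of the probes. A level is a mean ± SD of 3 arrays, and a change is a difference of such means in limma's fit of all 18 arrays with its standard error (SE). A probe was called if its unadjusted P-value was under 0.01 and its Benjamini-Hochberg adjusted P-value over all 32110 tested probes under 0.05, and a gene if any of its probes was. Brightness differs between probes for reasons other than abundance, so levels are compared within a probe only. The 5 contrasts with 0 h share the same 3 control arrays and are not independent of each other. The 0 h and 0.5 h groups share a scan day, the 1 h, 3 h and 6 h groups share another with replicates 1 and 2 of 9 h, and replicate 3 of 9 h was scanned on a day of its own, so that from 1 h on the scan day and the time since the cut cannot be told apart in a contrast with 0 h. Contrasts of 3 h and 6 h with 1 h lie within a scan day. No slide held arrays of more than 1 time-point, so slide and time cannot be told apart in any contrast, these included.

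The arrays had from 65.9% to 93.5% of spots well above background (median 73.8%), no spot was saturated, and their number limits the precision of every value. All 11 Schwann cell markers, 9 macrophage markers and 8 fibroblast and perineurial markers were well above background on all 3 arrays of 0 h. Skeletal muscle markers were present too, with a signal summed over the list (linear, in units of the 75th percentile of the array) of 93.4 to 1417 at 0 h and 1.75 to 124 at 9 h, and none of the 7 tested was called against 0 h at any time-point. Neutrophil markers rose from a summed signal of 0.362 to 0.585 at 0 h to 1.96 to 4.32 at 0.5 h and 17.0 to 20.4 at 9 h, with 3 of 9 called higher at 0.5 h (Mmp8, S100a8 and S100a9) and 7 of 9 from 3 h on. Of the Schwann cell markers 5 were called lower at 9 h, when their summed signal was 676 to 771 against 857 to 1017 at 0 h.

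The promoters of the 3 genes called soonest after the cut are shown because their change was already present at 0.5 h. The sequences are from RefSeq on the GRCr8 build, cover the 250 bases before the annotated start on the strand of the gene, and carry in capitals the motifs that were found. Those of Has1 lie at chr1:67378445-67378694 (minus strand), those of Tnfaip6 at chr3:56911148-56911397 (plus strand) and those of Adamts1 at chr11:38427385-38427634 (minus strand).
Has1: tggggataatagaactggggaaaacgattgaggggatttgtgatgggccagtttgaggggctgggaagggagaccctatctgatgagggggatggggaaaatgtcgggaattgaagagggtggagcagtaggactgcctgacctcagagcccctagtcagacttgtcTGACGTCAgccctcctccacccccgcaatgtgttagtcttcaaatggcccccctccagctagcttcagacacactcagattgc
Tnfaip6: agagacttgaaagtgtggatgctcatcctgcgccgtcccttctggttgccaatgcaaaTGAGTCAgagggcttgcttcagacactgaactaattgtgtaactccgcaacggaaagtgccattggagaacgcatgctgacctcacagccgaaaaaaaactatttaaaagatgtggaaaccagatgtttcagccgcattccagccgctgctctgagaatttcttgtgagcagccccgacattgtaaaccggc
Adamts1: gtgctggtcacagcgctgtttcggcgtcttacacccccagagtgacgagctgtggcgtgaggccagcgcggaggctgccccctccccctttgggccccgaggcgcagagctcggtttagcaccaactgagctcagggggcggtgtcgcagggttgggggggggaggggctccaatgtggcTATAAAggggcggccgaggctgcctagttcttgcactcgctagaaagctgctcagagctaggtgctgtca
The capitals in Has1 are an 8-base palindrome from -83 to -76 in which the cyclic AMP response element core TGACGT is read on both strands, and 7.94% of all 33469 promoters in the table hold that core. In Tnfaip6 they are an AP-1 site (TGANTCA) from -192 to -186, found in 7.33% of promoters, and in Adamts1 a TATA box (TATAAA) from -70 to -65, found in 14.22%. Windows of 250 bases before and 50 after the start were searched on both strands, and promoters were found for 8 of the 10 genes, those of Has2 and Fn1 not being in the table. Tnc and Spp1 also hold TATAAA, Cd44, Thbs1 and Adamts4 hold none of the motifs, and an E-box (CACGTG), an NF-kB site and a CArG box were found in none of the 8. A match is a description of the letters and not a measured binding site.

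Over the 6 time-points Has1, Adamts1, Tnfaip6, Cd44, Thbs1, Tnc and Adamts4, 7 of the 10 genes, were called in limma's moderated F-test, against 36.3% of the 27198 gene names tested. Has2, Spp1 and Fn1 were not called (adjusted P 0.0316, 0.036 and 0.116, where Has2 and Spp1 missed the limit on the unadjusted value). At 0.5 h 3 genes were called, all higher than at 0 h (Has1, Adamts1 and Tnfaip6), where 6.61% of all gene names were called, 4.7% higher and 1.92% lower. The same 3 were higher after 1 h, beside 6.09% called, 3.89% higher and 2.21% lower. Cd44, Thbs1 and Adamts4 joined them at 3 h and made 6 higher, beside 14.8% called, 7.7% higher and 7.09% lower. With Tnc 7 were higher at 6 h, beside 26.4% called, 13.1% higher and 13.5% lower. These 7 were also higher at 9 h and Fn1 was lower, beside 32.7% called, 17% higher and 15.9% lower. The median log2 change of the 10 genes was -0.08 after 0.5 h, 0.40 after 1 h, 1.04 after 3 h, 1.16 after 6 h and 1.47 after 9 h, and that of all genes tested was 0.00 after 0.5 h and 0.01 after 9 h.

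**Figure D1:**
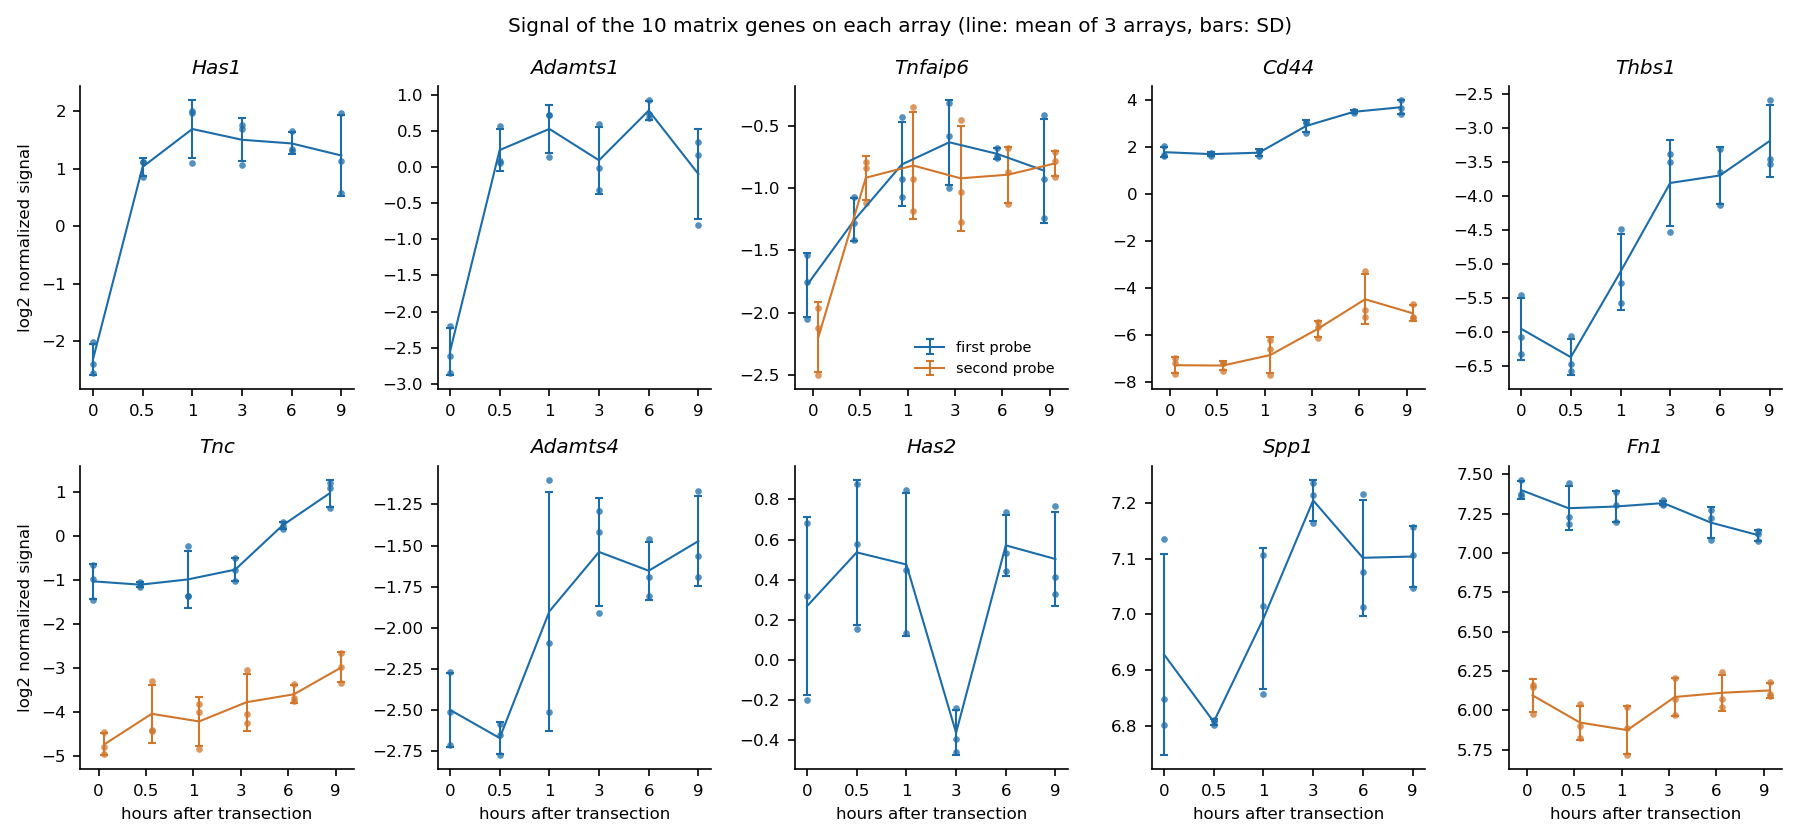
Log2 normalized signal (y axis) of each of the 10 genes on every array at each time after transection (x axis, hours, not to scale), with points for single arrays, lines through the means of 3 arrays and bars for the SD. The first probe of a gene is blue and the second orange. Has1 and Adamts1 are up on all arrays from 0.5 h on, Cd44 and Tnc climb late, and Spp1 and Fn1 keep within narrow ranges. The level of 1 probe cannot be compared with that of another.

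Has1, which encodes a hyaluronan synthase, rose the most of the 10 genes at every time-point. Its probe, at chr1:56503669-56503728 on the rn4 build of the files, gave -2.40, -2.02 and -2.56 on the arrays of 0 h and 1.12, 0.85 and 1.13 at 0.5 h. The later arrays lay at 1.11, 2.0 and 1.97 (1 h), 1.07, 1.69 and 1.76 (3 h), 1.31, 1.35 and 1.66 (6 h) and 1.14, 0.57 and 1.98 (9 h). No array after the cut overlapped those of 0 h. The change was 3.36 at 0.5 h (SE 0.32, limma adjusted P 7.5e-05), or 10.3-fold, 4.02 at 1 h (16.2-fold, adjusted P 1.02e-05) and 3.56 at 9 h (11.8-fold, adjusted P 4.39e-06). It was called at all 5 time-points under every alternative run, with a range of 3.05 to 3.51 at 0.5 h. Neutrophil markers rose at 0.5 h too (above), and their part in the change of Has1 was not tested. From 1 h on the level did not move beyond its spread, with 6 h against 1 h at -0.25 (95% interval -0.94 to 0.44). In whole nerve, fewer cells of a type and less RNA per cell cannot be told apart, nor can more of either.

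Has2, which encodes the synthase of very long hyaluronan, behaved otherwise. Its probe at chr7:93230435-93230494 lay at 0.27 ± 0.44 (0 h), then 0.54 ± 0.36 (0.5 h), 0.48 ± 0.36 (1 h), -0.36 ± 0.11 (3 h), 0.57 ± 0.15 (6 h) and finally 0.50 ± 0.23 (9 h), each an SD of n = 3. The arrays of 3 h (-0.46, -0.39 and -0.24) lay below all 15 others, of which the lowest was -0.20 at 0 h. Against 0 h no time-point was called. At 0.5 h the change was 0.27 with a 95% interval of -0.24 to 0.77, so that a rise of the size seen in Has1 lies outside it, and at 3 h it was -0.63 (adjusted P 0.0927). The 3 h level was called against its neighbours in time, by -0.84 against 1 h (adjusted P 0.0372) and as 0.93 for 6 h against 3 h (adjusted P 0.0364), both within a scan day. At 9 h it was 0.87 higher than at 3 h (adjusted P 0.0233), a call lost without replicates 1 or 2 of 3 h, with replicate 3 of 9 h left out or scan day as a block (0.73 each), with normexp (0.70) and with a shift to the median (0.79). The first of these calls was lost without replicate 2 or 3 of 1 h or any array of 3 h, and that of 6 h without replicate 3 of 0.5 h or any array of 3 h or 6 h. Both were also lost with normexp (-0.66 and 0.82), with a shift to the median (-0.78 and 0.88), with no filter on dim probes and with only the arrays compared. With replicate 1 of 0 h left out Has2 was called lower at 3 h than at 0 h (-0.86, adjusted P 0.031), as it was with the replicate number as a block (-0.63, adjusted P 0.0298).

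Tnfaip6 has 2 probes of 60 bases, which the files leave unmapped on the genome, and their sequences are shown because the pair disagree at 0.5 h. The first starts at base 144 of its target in the files and the second at base 768.
First probe: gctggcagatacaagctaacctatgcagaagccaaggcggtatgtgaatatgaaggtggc
Second probe: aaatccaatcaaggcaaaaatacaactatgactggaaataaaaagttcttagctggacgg
On the first, levels were -1.78 ± 0.26 (0 h), then -1.26 ± 0.17 (0.5 h), -0.81 ± 0.34 (1 h), -0.63 ± 0.34 (3 h), -0.73 ± 0.04 (6 h) and finally -0.86 ± 0.42 (9 h). On the second they were -2.20 ± 0.28 at 0 h and between -0.92 and -0.80 from 0.5 h on. All arrays after the cut lay above all arrays of 0 h on both probes. At 0.5 h the change was 0.52 (adjusted P 0.196, not called) on the first and 1.28 (2.42-fold, adjusted P 0.00775) on the second, and whether the probes differ from each other was not tested. With normexp background correction the second was not called at 0.5 h either (1.08). From 1 h on both were called, with changes of 0.92 to 1.14 on the first and 1.27 to 1.39 on the second. On the first the call at 1 h was lost without replicates 1 or 3 of 0 h, or replicates 2 or 3 of 1 h, where the change was between 0.78 and 1.03, and with normexp it was lost at 1 h (0.89) and at 9 h (0.74).

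Cd44 stayed at its starting level for 1 h and then climbed. The first probe, at chr3:88023965-88024025, read 1.64, 2.03 and 1.68 at 0 h, then 1.62, 1.70 and 1.76 after 0.5 h, followed by 1.60, 1.85 and 1.83 after 1 h. Later arrays read 2.61, 3.02 and 3.06 (3 h), 3.51, 3.55 and 3.43 (6 h) and 3.65, 3.42 and 4.01 (9 h). The 3 early groups overlapped and every array from 3 h on lay above all of them. At 1 h the change was -0.02 (95% interval -0.36 to 0.31). It was 1.12 at 3 h (2.17-fold, SE 0.16, adjusted P 0.000406), then 1.72 at 6 h (3.29-fold, adjusted P 6.61e-06) and finally 1.91 at 9 h (3.76-fold, adjusted P 2.13e-06), and these 3 were called under all alternatives. Within a scan day it was 1.14 higher at 3 h than at 1 h (adjusted P 0.000596) and 1.74 higher at 6 h than at 1 h (adjusted P 9.34e-06). The step from 3 h to 6 h (0.60, adjusted P 0.0429) lost its call without replicate 3 of 0 h, replicate 2 of 1 h, replicate 1 or 2 of 3 h, replicate 1 of 9 h or any array of 0.5 h or 6 h (0.45 to 0.66), and also with normexp (0.79), with a shift to the median (0.55), with no filter on dim probes and with only the arrays compared. Macrophage markers, whose cells carry CD44, had a summed signal of 46.9 to 53.4 at 0 h, 36.6 to 44.4 at 1 h, then 54.4 to 94.2 at 3 h and finally 105.8 to 132.2 at 9 h. Of the 9 markers Csf1r was called higher already at 0.5 h and 1 h, and Aif1 lower at 1 h. At 3 h 2 were called higher (Cd14 and Csf1r), beside 7.7% of all gene names. At 9 h 4 were higher and 1 lower (Adgre1), beside 17% and 15.9%. Neutrophil markers rose over the same span. The part of these cells in the change of Cd44 was not tested.

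The second Cd44 probe lies at chr3:88044582-88048264, a span of 3683 bases and so wider than the 60-base probe. It was not well above background on any array of 0 h, 0.5 h or 1 h, on 1 array of 3 h, and on all 3 of 6 h and 9 h. Against 0 h it was called higher at 3 h (1.54, limma adjusted P 0.0372, at least 1.70-fold), a call lost under 10 of 28 alternatives, normexp among them. It was at least 4.07-fold higher at 6 h (measured means -4.48 and -7.29, adjusted P 0.000611) and at least 2.70-fold higher at 9 h (adjusted P 0.0023), where the bound takes the lowest signal that is well above background on each 0 h array. Replicate 1 of 6 h read -3.26 where the others read -5.23 and -4.95, and without it the bound at 6 h was 2.67-fold. With normexp neither time-point was called, the change being 0.74 at 6 h and 0.36 at 9 h.

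Tnc, which encodes tenascin-C, was first called at 6 h. The first of its probes, both unmapped in the files, read -0.67, -0.98 and -1.45 at 0 h, between -1.17 and -1.05 at 0.5 h, then -1.36, -1.38 and -0.23 after 1 h, followed by -0.77, -0.51 and -1.02 after 3 h. It read 0.17, 0.22 and 0.33 at 6 h, followed by 1.08, 0.63 and 1.21 at 9 h. The first 4 groups overlapped, and the arrays of 6 h and 9 h stood above all of them. The change was 1.27 at 6 h (2.41-fold, SE 0.28, adjusted P 0.00412) and 2.0 at 9 h (4.01-fold, adjusted P 0.000132). It was 0.27 at 3 h (95% interval -0.33 to 0.86), and from 3 h to 9 h Tnc rose by 1.74 (adjusted P 0.00134). The second probe was dimmer and gave 1.14 at 6 h (adjusted P 0.0334) and 1.75 at 9 h (adjusted P 0.00257), but neither was called with normexp (0.55 and 0.94). The call at 6 h was also lost with quantile normalization (0.84), in the deposited matrix (0.81) and without replicate 2 or 3 of 0 h, any array of 6 h or replicate 1 of 9 h.

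Thbs1, which encodes thrombospondin-1, an activator of latent transforming growth factor beta, was measured near background by an unmapped probe. It read -6.09, -5.46 and -6.33 at 0 h, followed by -5.58, -5.29 and -4.49 at 1 h, and on no array of 0.5 h was it well above background. Later arrays read -4.54, -3.51 and -3.39 (3 h), -3.31, -4.14 and -3.65 (6 h) and -3.46, -3.54 and -2.59 (9 h). These 9 arrays lay above all of 0 h. The change was 2.15 at 3 h (4.43-fold, SE 0.38, adjusted P 0.00201), then 2.26 at 6 h (adjusted P 0.000765) and 2.76 at 9 h (6.79-fold, adjusted P 0.000124). With normexp it was 1.66, 0.91 and 1.24 and was not called. Within a scan day Thbs1 was 1.31 higher at 3 h than at 1 h (adjusted P 0.0413), with overlapping arrays and a call lost without replicate 1 of 0 h, replicate 1 or 2 of 1 h, replicate 2 or 3 of 3 h, replicate 3 of 6 h, replicate 1 of 9 h or any array of 0.5 h (1.08 to 1.31), with normexp (0.60), with no filter on dim probes or with only the arrays compared. It was 1.42 higher at 6 h than at 1 h (adjusted P 0.0136), a call lost if replicate 1 of 1 h was left out (1.19) or replicate 1 of 6 h was (1.22), with normexp (-0.15) and with only the arrays compared. Platelets store thrombospondin-1, and of 4 platelet markers Ppbp was called higher at all time-points but 1 h, and Gp9 at 6 h. Their summed signal was 5.92 to 9.82 at 0 h, then up to 12.8 at 0.5 h, 8.62 to 16.6 at 3 h, followed by 7.18 to 31.6 at 6 h and 9.23 to 10.1 at 9 h, and their part in Thbs1 was not tested.

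Spp1 and Fn1 were bright from the start and moved little. Spp1, which encodes osteopontin, has a probe at chr14:6422382-6422441 and read 6.93 ± 0.18 (0 h), then 6.81 ± 0.0049 (0.5 h), 6.99 ± 0.13 (1 h), 7.20 ± 0.04 (3 h), 7.10 ± 0.10 (6 h) and finally 7.10 ± 0.05 (9 h). No time-point was called against 0 h, with 0.28 at 3 h (95% interval 0.07 to 0.48, adjusted P 0.0742). Replicate 3 of 0 h read 7.14 where the others read 6.80 and 6.85, and without it Spp1 was called from 3 h on (0.38, then 0.28 and 0.28). With quantile normalization it was also called at those times, by 0.32, 0.47 and 0.49, and in the deposited matrix by 0.26, 0.41 and 0.42. With a trend and robust prior it was called at 3 h (0.28). The probe is printed on each array in 10 spots, whose SD within an array had a median of 0.070.

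The first probe of Fn1, which encodes fibronectin, lies at chr9:70702316-70702375 and read 7.36, 7.47 and 7.37 at 0 h and 7.12, 7.14 and 7.08 at 9 h, without overlap. The change at 9 h was -0.29 (SE 0.09, adjusted P 0.0196). It was 0.01 with quantile normalization and 0.00 in the deposited matrix, so that its direction depends on the scaling, and it was not called with normexp, with only the arrays compared or with replicate 2 of 0 h left out (-0.25), nor with replicate 1 (-0.29) or replicate 3 (-0.27) of 9 h left out. The second probe, at chr9:70702896-70703500 and again wider than the probe in span, lay between 5.87 and 6.13 in mean at all time-points and was not called, with 0.03 at 9 h (95% interval -0.19 to 0.25).

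**Figure D2:**
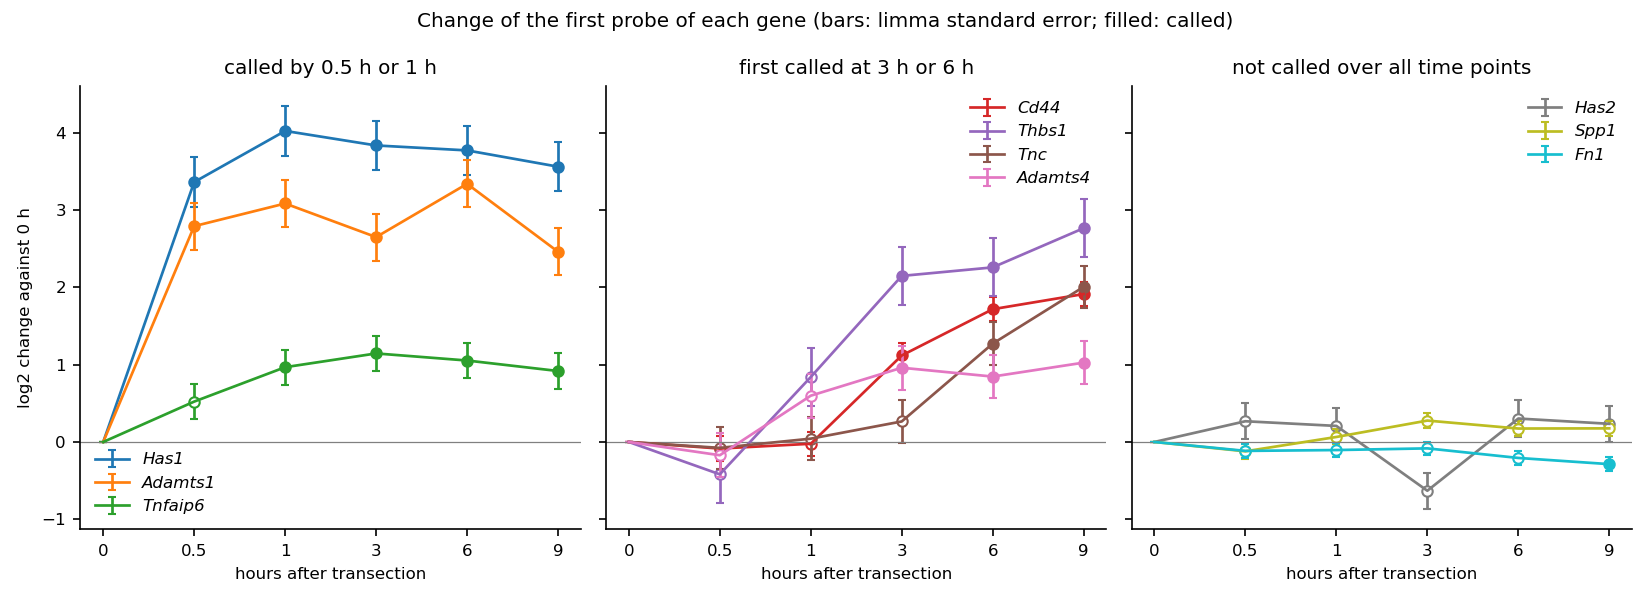
Log2 change against 0 h (y axis) of the first probe of each gene by time after transection (x axis, hours, not to scale), with bars for the limma SE, filled points for called changes and open points for others. Has1 reaches 4.02 at 1 h and Adamts1 3.08, Cd44, Thbs1 and Tnc rise to between 1.91 and 2.76 at 9 h, and Has2, Spp1 and Fn1 stay within 0.63 of 0.

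The proteases had unlike courses. Adamts1, an early-response aggrecanase that also binds vascular endothelial growth factor, has a probe at chr11:25434208-25434267 and read -2.20, -2.85 and -2.61 at 0 h and 0.57, 0.08 and 0.05 at 0.5 h. Later arrays read 0.72, 0.72 and 0.14 (1 h), -0.01, 0.60 and -0.31 (3 h), 0.73, 0.93 and 0.68 (6 h) and 0.35, 0.16 and -0.81 (9 h). As for Has1, no later array overlapped those of 0 h. The change was 2.79 at 0.5 h (6.92-fold, SE 0.30, adjusted P 0.000179), peaked in mean with 3.34 at 6 h (10.1-fold, adjusted P 6.06e-06) and was 2.46 at 9 h, and it was called at all 5 time-points under every alternative.

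Adamts4, the other aggrecanase, has a probe at chr13:87150072-87150596, a span of 525 bases. It read -2.71, -2.27 and -2.51 at 0 h and -2.67 ± 0.10 on average at 0.5 h, followed by -1.90 ± 0.73 (1 h), -1.54 ± 0.33 (3 h), -1.65 ± 0.18 (6 h) and finally -1.47 ± 0.27 (9 h). At 1 h replicate 3 (-1.10) stood above the others (-2.51 and -2.09), and from 3 h on no array overlapped 0 h. The change was 0.96 at 3 h (adjusted P 0.0371), then 0.85 at 6 h (adjusted P 0.0396) and 1.03 at 9 h (2.04-fold, adjusted P 0.0127). At 3 h the call was lost without any array of 0 h or replicate 2 or 3 of 3 h (0.84 to 1.08), with normexp (1.11) and with no filter on dim probes (0.96), at 6 h under 19 of 29 alternatives, which include leaving out any array of 0 h, 0.5 h or 6 h, and at 9 h with normexp or with either replicate 1 of 0 h (0.92) or replicate 3 of 9 h (0.87) left out.

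Within the second scan day 3 genes were called between 3 h and 1 h, Cd44 and Thbs1 higher and Has2 lower, where 11% of gene names were called, 6.07% higher and 4.95% lower. Cd44, Tnc and Thbs1 were called higher at 6 h than at 1 h, where 25.7% were called, 12.5% higher and 13.2% lower, and Cd44 and Has2 at 6 h against 3 h, where 5.86% were, 3.15% higher and 2.7% lower. At 9 h against 3 h, a contrast in which replicate 3 of 9 h was scanned on another day, Cd44, Tnc and Has2 were called higher, where 17.3% were called, 8.25% higher and 9.05% lower. Has1, Adamts1, Adamts4 and Tnfaip6 were called in none of these 4 contrasts.

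The courses of some of the genes over the 18 arrays are alike in pairs, as a description in which all points share the same arrays and scaling. Pearson's r was 0.92 for Cd44 and Thbs1, 0.91 for Thbs1 and Adamts4, 0.87 for Has1 and Adamts1, 0.86 for Has1 and Tnfaip6 and 0.86 for Cd44 and Tnc. For the synthases Has1 and Has2 it was 0.08, and for Fn1 it was negative with every other member, the lowest being -0.69 with Tnc. Among all other genes with a listed symbol, the courses most like Has1 were those of Cxcl2 (0.97), Socs3 (0.96) and Cxcl1 (0.96), and those most like Adamts1 were Hspa1a (0.94), Csrnp1 (0.92) and Cxcl2 (0.92). For Tnfaip6 they were Tfpi2 (0.91), Slc39a14 (0.91) and Myc (0.90). Slc39a14 was also among those most like Cd44, with Ptges and Ddx21 (0.99 each). For Tnc they were Kat14, Bop1 and Shmt2 (0.97 each), for Thbs1 Tubb6, Bltp3b and Stat3 (0.96 each), and for Adamts4 Sec23b (0.95), Il4r (0.94) and Taf5l1 (0.94).

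The other genes of hyaluronan metabolism were described through a list of 11, of which 8 were tested. From 3 h on the same 3 were called higher and none lower than at 0 h, beside 17% and 15.9% of all gene names at 9 h, with a list median of 0.13, then 0.10 and finally 0.25. Ugdh, which makes the UDP-glucuronic acid that synthases use, read 1.75, 1.91 and 1.91 at 0 h but 3.65, 3.30 and 4.04 at 9 h, and rose by 1.80 at 3 h (3.47-fold, SE 0.20, limma adjusted P 6.62e-05), then 1.97 at 6 h and finally 1.80 at 9 h. Gfpt2, an enzyme at the entry to the pathway of the other sugar, UDP-N-acetylglucosamine, rose by 1.41 at 3 h (adjusted P 0.000668) and 1.44 at 9 h. Cemip2, a surface protein linked to the breakdown of hyaluronan, rose by 0.59 at 3 h and 0.82 at 9 h. Its call at 3 h was lost without replicate 1 of 0 h or replicate 2 of 3 h, with normexp (0.44) and with only the arrays compared. A shift to the median ended its calls at 3 h (0.50) and 6 h (0.46). None of the 8 was called at 0.5 h or 1 h, beside 6.61% and 6.09% of all gene names. The third synthase Has3 and the breakdown genes Spam1 and Cemip were not tested, and the hyaluronidases Hyal1 and Hyal2 were not called in any contrast with 0 h. Hyal3 was not called against 0 h either, but it was called over the 6 time-points (adjusted P 0.000902) and fell by 0.44 from 1 h to 6 h and by 0.50 from 3 h to 6 h.

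**Figure D3:**
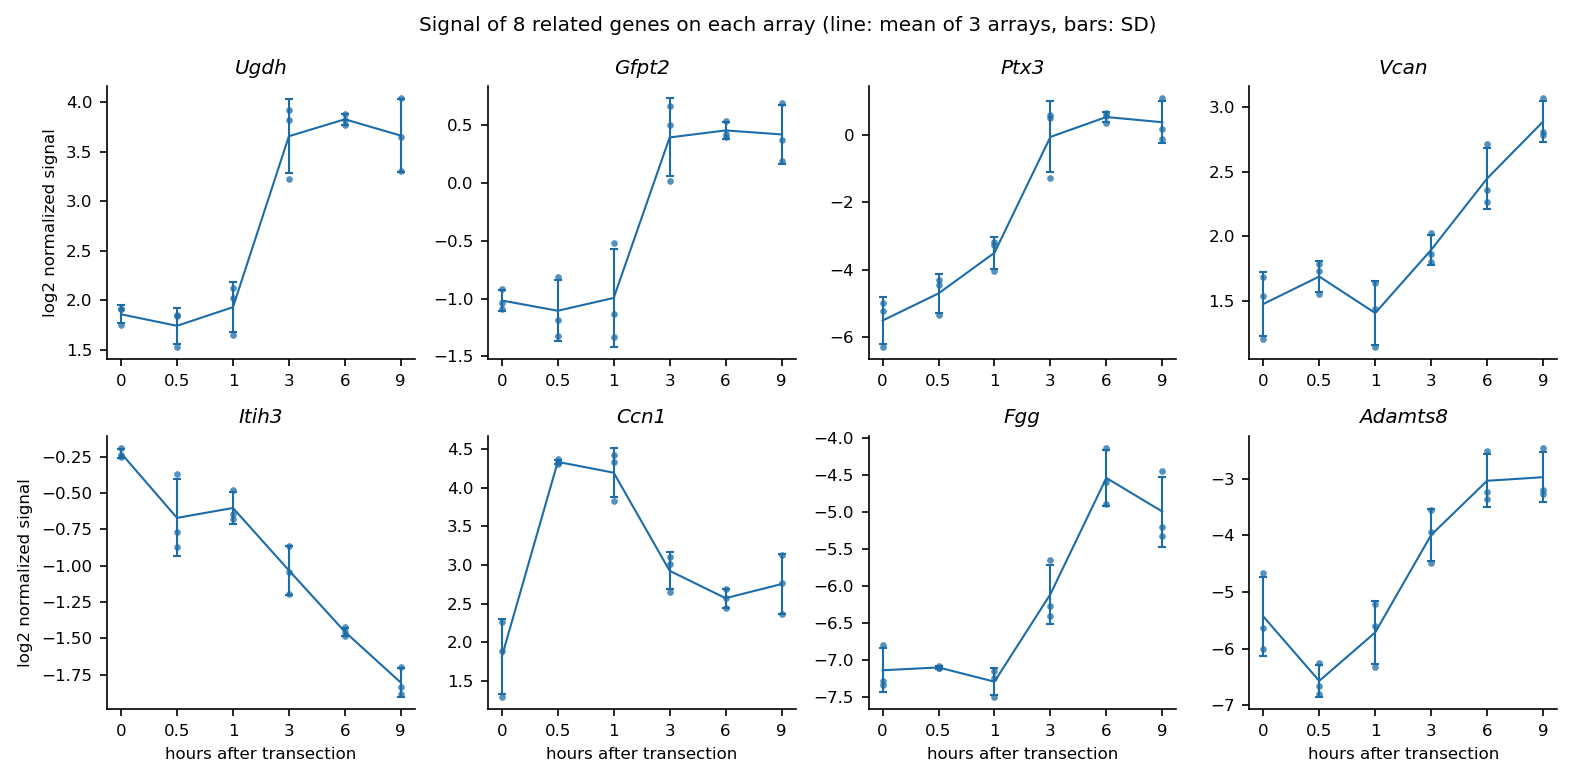
Log2 normalized signal (y axis) of 8 related genes on every array by time after transection (x axis, hours, not to scale), with lines through the means of 3 arrays and SD bars. Ugdh and Gfpt2 step up at 3 h, Ptx3 climbs by over 5 units, Itih3 falls, and Ccn1 peaks at 0.5 h. Fgg was not well above background on any array of 0 h, 0.5 h or 1 h.

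Among 21 hyaluronan-binding proteins and inter-alpha-trypsin heavy chains 15 were tested, and 3 were called higher (Ptx3, Vcan and Hapln4) and 2 lower (Itih3 and Hapln3) at 9 h, with a list median of 0.05, a share like the 32.7% of all gene names called. At 1 h 4 were higher (Ptx3, Hapln4, Hapln2 and the brain lectican Bcan) and none lower, beside 6.09% of all gene names called (3.89% higher). Bcan lost its call under 18 of 29 alternatives, among them quantile normalization, the deposited matrix and leaving out any array of 0 h. Ptx3, which encodes a pentraxin that joins heavy chains in hyaluronan matrices, read -5.00, -5.24 and -6.29 at 0 h and 0.16, -0.13 and 1.07 at 9 h. The lowest signals well above background on the 0 h arrays were -6.76, -6.33 and -6.44, so its starting level was near background. Ptx3 was 2.01 higher at 1 h (adjusted P 0.0325, a call lost without replicate 2 or 3 of either group and with normexp, quantile normalization and the deposited matrix) and 5.44 higher at 3 h (43.4-fold, SE 0.50, adjusted P 1.55e-05), with 6.03 at 6 h and 5.88 at 9 h. Over the alternatives the change at 3 h ran from 3.77 (normexp) to 6.05, and normexp also gave the lowest values at 6 h (4.40) and 9 h (4.30). Vcan, which encodes versican, the substrate of both proteases, rose by 0.97 at 6 h (adjusted P 0.000687) and 1.41 at 9 h (2.66-fold, adjusted P 2.98e-05). Itih3, a heavy chain, fell by 0.81 at 3 h, then 1.23 at 6 h and finally 1.58 at 9 h (adjusted P 1.2e-06), each 9 h array lying below every earlier one. With normexp its call at 3 h (-0.52) and that of Hapln3 at 9 h (-0.54) were lost. The link proteins parted, Hapln3 falling by 0.58 and Hapln4 rising by 1.25 at 9 h, and Lyve1, a hyaluronan receptor of lymphatic vessels, was called lower at 6 h by a probe other than its brightest.

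Of 23 other matricellular and provisional matrix proteins 19 were tested, and 4 were called higher and 5 lower at 9 h, with a median of -0.12, beside 32.7% of all gene names called. Ccn1, an integrin-binding early-response protein, rose by 2.52 at 0.5 h (5.73-fold, adjusted P 6.91e-05) and 2.38 at 1 h, and by 0.94 at 9 h, where the call was lost without replicate 3 of 9 h (0.75) and with only the arrays compared. The fibrinogen chains Fgg and Fgb were dim. Fgg was called at 3 h (adjusted P 0.0169), when 1 array was well above background, a call lost with normexp, the trend and robust prior, only the arrays compared and 3 of the arrays left out singly. It was at least 3.90-fold higher at 6 h and at least 2.85-fold at 9 h than at 0 h, and Fgb was 2.98-fold and 2.15-fold higher, but with normexp neither gene was called at these times, and Fgb lost its call at 9 h without any array of 0 h or replicate 1 or 2 of 9 h, in the deposited matrix (0.53) and with quantile normalization (0.55). With only the arrays compared it was lost at 6 h. Tnr was also called higher at 9 h, by a probe other than its brightest. Those called lower at 9 h were Ccn3 (-1.22), Postn (-1.04), Vtn (-0.75), Sparcl1 (-0.56) and Sparc (-0.55), at a time when 7 of 8 fibroblast and perineurial markers were called lower and their summed signal was 923.5 to 983.6 against 1328 to 1418 at 0 h. Sparc depended on the scaling, with -0.05 after quantile normalization and -0.06 in the deposited matrix, neither called. Sparcl1 lost its call with normexp (-0.46), and Sparcl1 and Vtn with only the arrays compared. The part of these cells in the falls was not tested.

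Besides the members, 13 of 18 ADAMTS proteases and their inhibitor Timp3 were tested, and 3 were called higher and 2 lower at 9 h, a share near the 32.7% of all gene names called. Adamts8 rose by 1.44 at 3 h, then 2.40 at 6 h and finally 2.46 at 9 h (5.50-fold, adjusted P 0.000339), Adamts9 by 1.12 at 9 h (adjusted P 0.000217) and Adamts3 by 1.37 at 9 h. The Adamts8 probe was dim, with a mean of -5.43 at 0 h and no array of 0.5 h well above background. Adamts12 and Adamts14 fell by 0.95 and 0.87 at 9 h. Adamts3 lost its call without any array of 0 h or replicate 3 of 9 h and with normexp (0.72), Adamts14 without replicate 2 of 0 h and with normexp, and Adamts8 with normexp from 3 h on and, at 3 h, without replicate 2 or 3 of either group and with only the arrays compared. None of the 13 was called at 0.5 h or 1 h, where 6.61% and 6.09% of all gene names were.

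All 16 listed receptors of these matrix proteins were tested, and 4 were called higher and 4 lower at 9 h, beside 17% and 15.9% of all gene names. The syndecans, which carry heparan sulfate chains that bind fibronectin, tenascin-C and thrombospondin-1, rose the most at 9 h. Sdc4 was 0.65 higher at 1 h (adjusted P 0.00959, a call lost with normexp, at 0.45, and with a shift to the median, at 0.50) and 1.65 at 3 h, then 1.73 at 6 h and finally 1.69 at 9 h (3.23-fold, adjusted P 9.1e-07), and Sdc1 was 1.47 higher at 6 h and 2.06 at 9 h (4.16-fold, adjusted P 1.01e-05). Itga5, the alpha chain of the main fibronectin receptor, rose by 0.83 and its partner Itgb1 by 0.37 at 9 h. Itga4 (-0.63), Itgb5 (-0.56), Cd47 (-0.51) and Itga9 (-0.49) fell at 9 h, Cd47 being a receptor of thrombospondin-1 and Itga9 of tenascin-C and osteopontin. With normexp none of these 4 nor Itgb1 was called. Itgb5 lost its call under 9 of 29 alternatives, among them quantile normalization, the deposited matrix and leaving out replicates 2 or 3 of 0 h, the second replicate of 0.5 h, and replicates 1 or 3 of 9 h. Itga9 lost it without replicate 1 or 3 of 0 h, or replicate 2 or 3 of 9 h, Itga4 without replicate 2 of 0 h or 9 h, and Itgb1 without replicate 3 of 9 h. A shift to the median ended the call of Itgb1 (0.20). With only the arrays compared Itga4, Itgb1 and Cd47 lost theirs too.

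**Figure D4:**
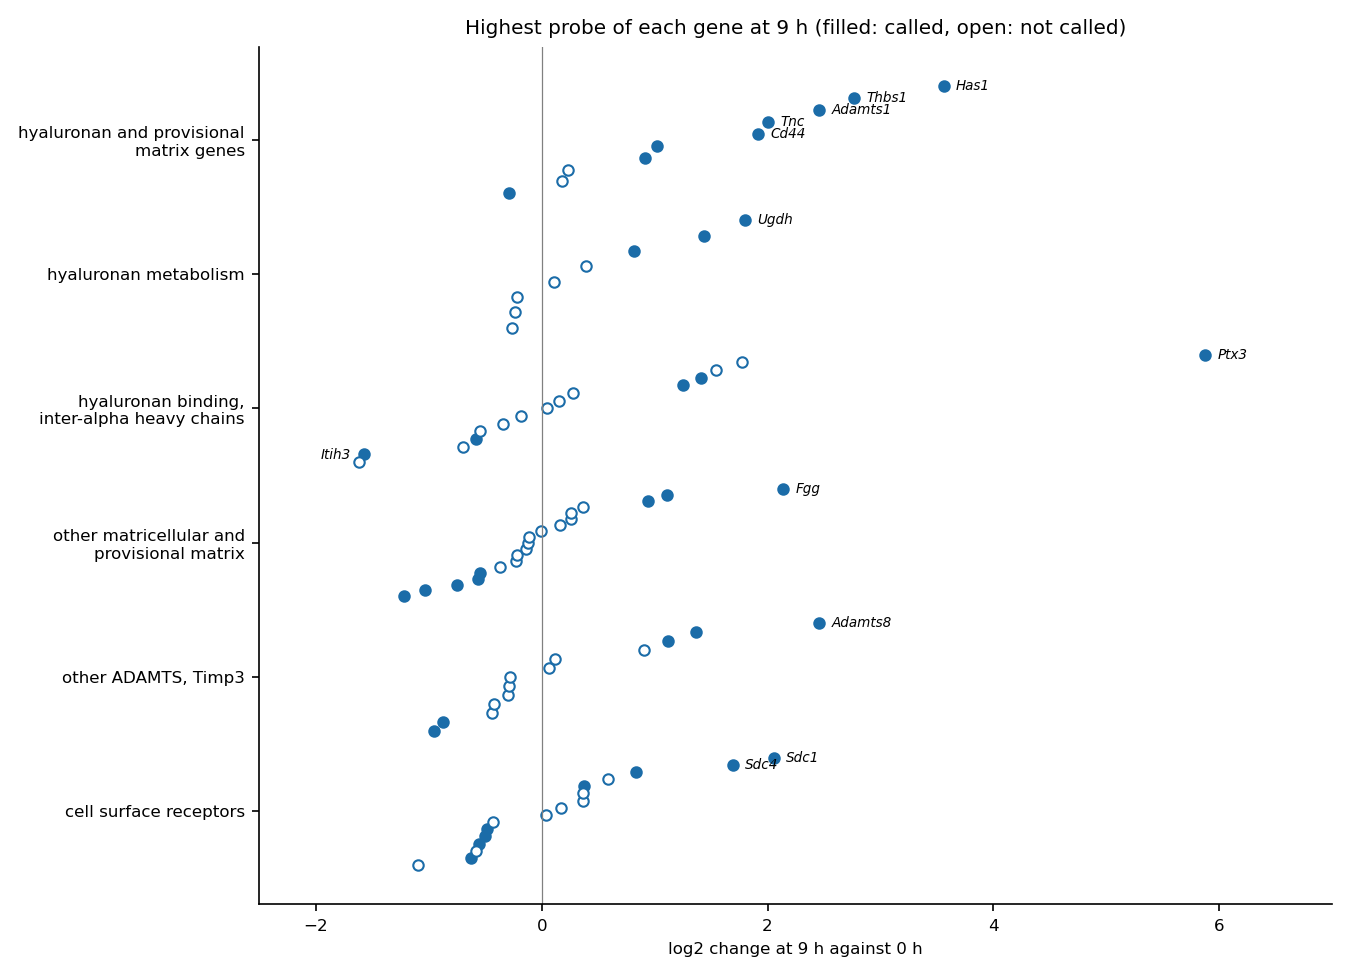
Log2 change at 9 h against 0 h (x axis) of the brightest tested probe of each gene in the 10 matrix genes and 5 related lists (rows), with filled points for called and open points for other genes and names beside called changes above 1.5. Has1 leads its row at 3.56, Ptx3 stands apart at 5.88, and each related list except hyaluronan metabolism has called genes on both sides of 0.

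**Figure D5:**
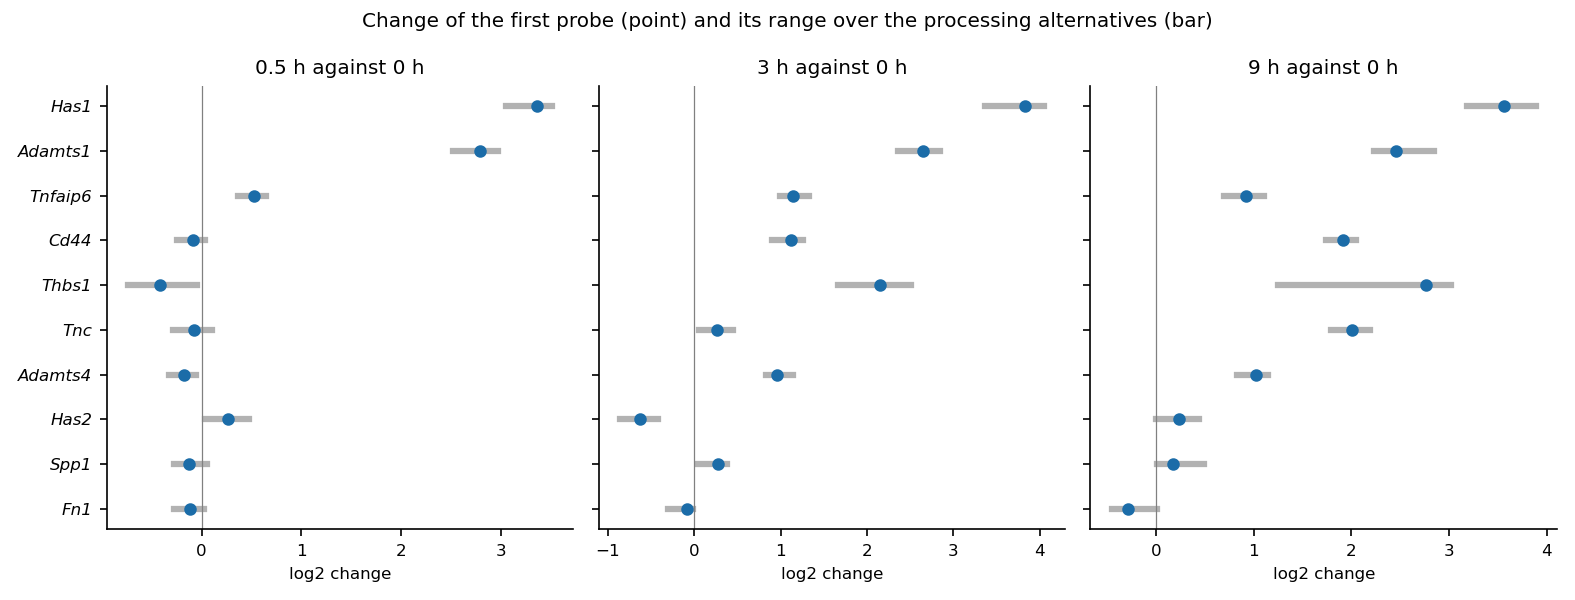
Log2 change (x axis) of the first probe of each gene (rows) at 0.5 h, 3 h and 9 h against 0 h, with a point for the reported value and a bar from the lowest to the highest value over the processing alternatives. Has1, Adamts1 and Tnfaip6 lie to the right of 0 in all panels, and the bar of Thbs1 at 9 h reaches down to 1.24.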

How the data were processed

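The 18 samples were total RNA of proximal nerve segments on one-colour (Cy3) Agilent rat arrays, 3 for each of 6 time-points taken from the sample labels. Scanner output was deposited, in which the processed signal is a linear intensity with background and spatial trends removed by Feature Extraction (version 10.5.1.1 per the file headers), with flags for outlier, control and well above background spots. A deposited matrix of the authors' log2 values, whose median was 7.75 on every array, served as an alternative. From the intensities, control spots and outlier spots (58 to 179 an array) were left out, log2 values were taken minus the 75th percentile of the array, and spots of a probe were averaged. The 32110 probes that passed the background flag on every array of a time-point were tested with limma 3.58.1 in R 4.3.3, with prior degrees of freedom of 1.94, and the fit was tested on simulated data. RefSeq gave names to probes by accession (16336), symbol (3732) or older symbol (1098), and 19846 kept the name in the files. For a gene with several probes the first is the tested probe with the highest mean.

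The members and lists were chosen with earlier results of these data known. Genes named from a list are the 3 called with the largest absolute change at 6 h or 9 h, those that a count of up to 5 rests on, and, for likeness, the 3 with the highest r. Likeness is given for the members called over the time-points only. A probe on no array of a group well above background got a bound, the higher of its own signal and the lowest signal well above background on each array. Alternatives were quantile normalization, normexp (offset 50), the deposited matrix, centring on the array median, both filters on dim probes, blocks for replicate number, scan day and slide, array weights, another variance prior, fewer arrays, other thresholds, 1 probe per gene and leaving out each array. Python 3.11.15, numpy 2.4.6, pandas 2.3.3 and matplotlib 3.10.9 were also used.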

Additional observations from a re-analysis of the deposited data

How the results depend on the processing

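The counts of matrix genes called at 0.5 h and 1 h against 0 h were 3 on leaving out any 1 array, and over the 6 time-points they were 7 to 9, at 3 h 5 to 6, at 6 h 6 to 7 and at 9 h 6 to 9. With normexp the count at 9 h was 5 in place of 8 and that at 6 h 5 in place of 7, and those at 0.5 h, 3 h and over the time-points were 2, 4 and 5. Between later time-points the counts were less firm. For 3 h against 1 h, 3 genes became 1 with normexp, with no filter on dim probes and with only the arrays compared, and 1 to 3 on leaving out 1 array. For 6 h against 1 h, 3 became 1 with only the arrays compared and 2 to 4 on leaving out 1 array. For 6 h against 3 h, 2 became 0 with normexp, with a shift to the median, with no filter, with only the arrays compared and among changes of at least 2-fold, and 0 to 3 on leaving out 1 array. For 9 h against 3 h, 3 became 1 among changes of at least 2-fold and 2 to 3 on leaving out 1 array. Among called changes 6 values had the other sign. With normexp the second Cd44 probe was at -0.34 and Thbs1 at -0.15 for 6 h against 1 h, and Adamts14 at 0.31 and Itga4 at 0.35 for 3 h against 0 h. Fn1 at 9 h was at 0.0050 with quantile normalization and 0.0034 in the deposited matrix. Of the 48 called changes of the matrix genes 3 turned sign in this way and of the 79 of related genes 2, while 43 of the 78 changes of the matrix genes that were not called turned sign under 1 or more alternatives. Of the other values under alternatives, 126 of the matrix genes lost the call, 32 gained one and 3544 stayed on their side of the threshold, and 257 of the related genes lost it and 2024 did not. The cause was not tested.

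Under normexp the median change of all probes was 0.31 at 1 h and 0.44 at 3 h against 0 h, -0.39 for 6 h against 1 h, -0.43 for 6 h against 3 h and -0.45 for 9 h against 3 h, where it was -0.04 to 0.04 as reported, and changes under normexp are to be read relative to it. Under a shift to the median it was -0.16 to -0.09 against 0 h. With replicate number as a block 8 genes were called over the time-points and 7 at 3 h, and the other 8 counts were as reported. Deviations of arrays of the same number had correlations of -0.26 to 0.56 (median 0.07, 45 pairs). For arrays of other numbers they were -0.52 to 0.38 (median 0.007, 90 pairs). The ranges overlap, and whether the numbers pair the samples cannot be decided from them. Scan day as a block could not be fitted for the F-test or for any contrast of 0 h with 1 h or later. Dim probes limit Thbs1, Fgg, Fgb, Adamts8 and the second probe of Cd44, and the 0 h level of Ptx3 was near background.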

Other observations

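Beyond the probes chosen by name, 2 more probes carry CD44 in the description of the files. One of them, on a transcript cluster of the array's design, read -1.99 ± 0.13 (0 h), then -1.73 ± 0.08 (0.5 h), -1.95 ± 0.30 (1 h), -0.20 ± 0.34 (3 h), 0.18 ± 0.06 (6 h) and finally 0.24 ± 0.18 (9 h), well above background on all 18 arrays, and all 9 arrays of 3 h, 6 h and 9 h lay above all 9 earlier ones. The other was well above background on 1 array of 3 h and 1 of 6 h only. Which transcript these probes measure was not tested.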
